A study of Mus musculus with 6 samples.

Results

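The genes described here belong to the solute carrier families that hold most plasma membrane and lysosomal carriers of amino acids. They were taken from the deposited count table by symbol, as every gene with values in the solute carrier families 1, 3, 6, 7, 36, 38 and 43 whose raw count averaged at least 5 over the 6 libraries, with the creatine carrier Slc6a8 left out. Of 17034 genes with values, 54 carried such a symbol and 39 met the count minimum: 9 of family 38, 10 of family 7, 9 of family 6, 4 of family 1, 3 each of families 36 and 43, and 1 of family 3. The prefixes also took genes with other roles. Slc7a6os, named for lying on the opposite strand beside Slc7a6, is not a carrier, Slc6a2 carries noradrenaline, and Slc43a3 is known for purine bases. They are kept in the counts.

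The RNA, selected for polyadenylated transcripts, came from the gastrocnemius, a calf muscle of mixed fibre type. All mice were males aged 8 weeks. The 3 mice labelled TRa_mKO carried floxed Thra, which encodes thyroid hormone receptor alpha, together with the transgene Myf5-Cre. The 3 WT littermates also carried floxed Thra, without Cre, so the effect of Cre itself and that of the deletion cannot be told apart. Myf5 drives Cre in embryonic myogenic cells and their descendants, so that vessel, nerve and blood cells within the muscle are not its main targets. In which cells Cre acted was not measured here.

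Amino acid carriers work in a few cooperating types. Sodium-coupled carriers of the system A kind accumulate small neutral amino acids against a gradient, exchangers trade glutamine for leucine and other essential amino acids, and heteromeric carriers pair the heavy chain CD98 with light chains that set the substrate. In muscle these carriers feed protein synthesis and release alanine and glutamine to the blood. Their genes respond to amino acid shortage through the transcription factor ATF4, and carriers on the lysosome report amino acids to the growth kinase complex mTORC1. Some light chains also carry thyroid hormone.

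Of the 39 genes, 35 passed the filter on low counts and were tested together with all other genes (13118 in all, by the quasi-likelihood test of edgeR). A gene was called at an adjusted p below 0.05 after Benjamini-Hochberg adjustment. Slc38a6 rose and Slc38a2 fell in the libraries labelled TRa_mKO. The count of 2 of 35 (5.71%) lies beside 4.17% called over all genes tested, a share near the background. By direction, 1 of 35 was higher beside 2.52% of all genes, and 1 of 35 lower beside 1.65%. The median log2 fold change was -0.05 over the members and 0.00 over all genes, with 17 members above 0 and 18 below. DESeq2 called 2 members higher and 2 lower beside 5.81% of all genes, limma-voom 1 and 1 beside 3.93%, and edgeR with a replicate block 1 and 0 beside 2.72%. The remaining 33 members were not called, and what their intervals allow is given further on.

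Since Slc38a6 and Slc38a2 are the called genes, the sequences around their RefSeq transcription starts are shown. Each runs 5′ to 3′ on the gene's strand in build GRCm38.p6, with 250 bases before the start in lower case and the first 50 from the start in capitals. Slc38a6 lies at chr12:73286598-73286897 (plus strand) and Slc38a2 at chr15:96699679-96699978 (minus strand).
Slc38a6: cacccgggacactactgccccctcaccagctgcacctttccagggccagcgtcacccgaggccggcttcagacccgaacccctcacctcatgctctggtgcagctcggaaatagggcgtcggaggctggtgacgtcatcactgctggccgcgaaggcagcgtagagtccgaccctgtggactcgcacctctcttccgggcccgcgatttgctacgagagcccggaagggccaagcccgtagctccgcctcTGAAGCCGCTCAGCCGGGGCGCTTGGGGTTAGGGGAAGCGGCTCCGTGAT
Slc38a2: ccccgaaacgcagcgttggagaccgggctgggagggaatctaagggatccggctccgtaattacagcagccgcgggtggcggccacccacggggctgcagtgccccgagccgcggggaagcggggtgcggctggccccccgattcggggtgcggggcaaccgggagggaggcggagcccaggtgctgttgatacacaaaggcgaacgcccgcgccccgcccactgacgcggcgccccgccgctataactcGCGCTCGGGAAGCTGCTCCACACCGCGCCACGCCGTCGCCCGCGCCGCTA
The bases G and C make up 66.7% of the first window and 73.0% of the second, against a median of 52.7% over all promoter windows. Neither window holds the thyroid hormone receptor element DR4, the direct repeat of AGGTCA with 4 bases between the copies, nor a single half-site AGGTCA, searched on both strands. Of 32851 windows of this length, 0.0152% held DR4 and 16.3% the half-site. Neither holds the core of the C/EBP-ATF element, TGATGNAA, which 3.97% of all windows held. RefSeq windows, 39 in all, were matched for 25 of the 39 members. Of these windows 4 held the C/EBP-ATF core (of Slc1a4, Slc7a7 and Slc7a11), 3 the half-site (of Slc36a1, Slc6a13 and Slc7a7) and 0 DR4. No match says only that these letters are not in this window, and other forms of these elements, or sites elsewhere in the gene, were not searched.

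Library totals ran from 12390527 to 14488500 counts. Pairs of libraries differed beyond sampling noise, with a chi-square per degree of freedom of 7.42 to 18 within a genotype. Thra itself measured 129, 118 and 101 CPM (reads per gene scaled to a common library size after TMM normalization) in the libraries labelled TRa_mKO, against 78.8, 92.8 and 96.8 CPM in WT (log2 fold change 0.37, SE 0.12, edgeR adjusted p = 0.117). A count over the whole gene can include exons that the deletion leaves in place, so it checks neither deletion nor label, and every direction below rests on the labels. Over all genes, 331 were higher and 216 lower, and 213 were higher and 255 lower when libraries were scaled by size alone. Transcripts of the fast fibre list were abundant in every library (summed 140147 to 158534 CPM in TRa_mKO and 110943 to 150809 CPM in WT, 0 of 10 called). Of these 10, 8 had a log2 fold change above 0 and 2 below. The genotypes did not overlap for 4 of them, all above WT, beside 13.2% of all genes. The list includes Ckm and Acta1, which slow fibres transcribe too, so its sum is not specific to fast fibres. Slow fibre markers summed to 4950 to 7212 CPM in TRa_mKO and 1193 to 2771 CPM in WT, with 3 of 8 called higher beside 2.52% of all genes. All 8 lay above WT without overlap (log2 fold change 1.39 to 2.13), beside 13.2% of all genes. Endothelial markers summed to 862 to 1180 CPM in TRa_mKO and 1134 to 1395 CPM in WT, with 0 of 9 called. Of these, 8 had a log2 fold change below 0 and 1 above. In the edgeR test 4 were lower at an unadjusted p under 0.05, beside 1013 of all 13118 genes. Markers of Schwann cells (505 to 687 CPM against 320 to 1318 CPM in WT, 0 of 7 called), macrophages (56.8 to 89 CPM against 59.6 to 88.8 CPM in WT, 0 of 8), fibroblasts (1391 to 2008 CPM against 1313 to 1866 CPM in WT, 0 of 6) and adipocytes (24 to 53.5 CPM against 35 to 40.7 CPM in WT, 0 of the 4 tested) had sums that overlapped between genotypes. Of the 7 Schwann cell markers, 6 had a log2 fold change below 0 and 1 above, with a median of -0.78. Red blood cell markers summed to 711 to 1622 CPM in TRa_mKO and 458 to 1764 CPM in WT (0 of 6), highest in TRa_mKO replicate 3 and WT replicate 1. Of satellite cell markers Pax7 rose (1 of 5 beside 2.52% of all genes). They summed to 86.1 to 93.5 CPM against 69.5 to 78.6 CPM in WT, without overlap. All 5 had a log2 fold change above 0, and 3 lay above WT without overlap, beside 13.2% of all genes. Of smooth muscle and pericyte markers Kcnj8 fell (1 of 7 beside 1.65% of all genes). They summed to 1317 to 1585 CPM against 1600 to 1690 CPM in WT, also without overlap. Here 5 had a log2 fold change below 0 and 2 above, and 3 lay below WT without overlap, beside 10.1% of all genes. Neutrophil markers summed to 0.277 to 10.7 CPM in TRa_mKO and 0.823 to 1.32 CPM in WT, with 0 of 5 tested. No marker with values was at 0 in all libraries. What part these shifts have in the results below was not tested, and in bulk muscle fewer cells of a type cannot be told apart from less RNA per cell.

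Both called members belong to family 38, the sodium-coupled neutral amino acid carriers. Slc38a6 (gene ID 625098), a little-studied carrier of this family, had 112, 114 and 122 CPM in the libraries labelled TRa_mKO, against 83.2, 84.6 and 75.2 CPM in WT. All TRa_mKO libraries lay above all WT libraries, and the spread within each genotype was narrow (116 ± 5.29 and 81 ± 5.07 CPM, mean ± SD, n = 3 each). It rose 1.43-fold (log2 fold change 0.52, SE 0.09, 95% confidence interval 0.32 to 0.71, edgeR adjusted p = 0.0109). The counts of Slc38a6 were fractional in the deposited table, as can arise where reads are divided between features, and its value is uncertain to that extent. The GENCODE annotation of GRCm38 has 0 genes overlapping it. Without TRa_mKO replicate 2 the adjusted p of Slc38a6 was 0.055 at a log2 fold change of 0.52. Without WT replicate 1 and TRa_mKO replicate 3, the library of each genotype richest in red blood cell markers, it was 0.0775 at a log2 fold change of 0.50. Over 16 alternatives the adjusted p ran from 0.000117 to 0.0775 and the log2 fold change from 0.46 to 0.55.

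Slc38a2 (gene ID 67760) encodes SNAT2, the system A carrier that cells raise when amino acids are short. It had 163, 138 and 161 CPM in TRa_mKO and 205, 242 and 204 CPM in WT. Every TRa_mKO library lay below every WT library (154 ± 13.7 and 217 ± 21.6 CPM, mean ± SD, n = 3 each). Slc38a2 fell by 0.49 on the log2 scale (SE 0.11, interval -0.74 to -0.25, edgeR adjusted p = 0.0358), and WT held 1.41-fold more. With 1 library left out Slc38a2 passed only without TRa_mKO replicate 1 (adjusted p = 0.0439). It did not pass without TRa_mKO replicate 2 (0.162), TRa_mKO replicate 3 (0.0637), WT replicate 1 (0.0546), WT replicate 2 (0.12) or WT replicate 3 (0.0552), while the log2 fold change stayed between -0.54 and -0.41.

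Slc38a4 (gene ID 69354) encodes SNAT4, the other system A carrier that this muscle transcribes at a high level. It lies on chromosome 15, as do Slc38a2 and Slc38a1. It had 209, 161 and 112 CPM in TRa_mKO and 269, 256 and 258 CPM in WT. The WT libraries lay close together and above all TRa_mKO libraries, which differed widely among themselves (161 ± 48.8 and 261 ± 6.74 CPM, mean ± SD, n = 3 each). Slc38a4 had a log2 fold change of -0.70 (SE 0.20, interval -1.15 to -0.25) and did not pass (edgeR adjusted p = 0.0948). It passed without TRa_mKO replicate 1 (adjusted p = 0.0116, log2 fold change -0.94) and with DESeq2 (0.00335), in a range of 0.00335 to 0.24 over 17 alternatives. The log2 fold change was -0.49 without TRa_mKO replicate 3 and -0.47 without WT replicate 1 and TRa_mKO replicate 3, where that of Slc38a2 was -0.53 and -0.57. The third system A carrier, Slc38a1 (SNAT1), was scarce, at 1.78 ± 0.49 CPM in TRa_mKO and 1.63 ± 0.308 CPM in WT (adjusted p = 0.891).

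**Figure D1:**
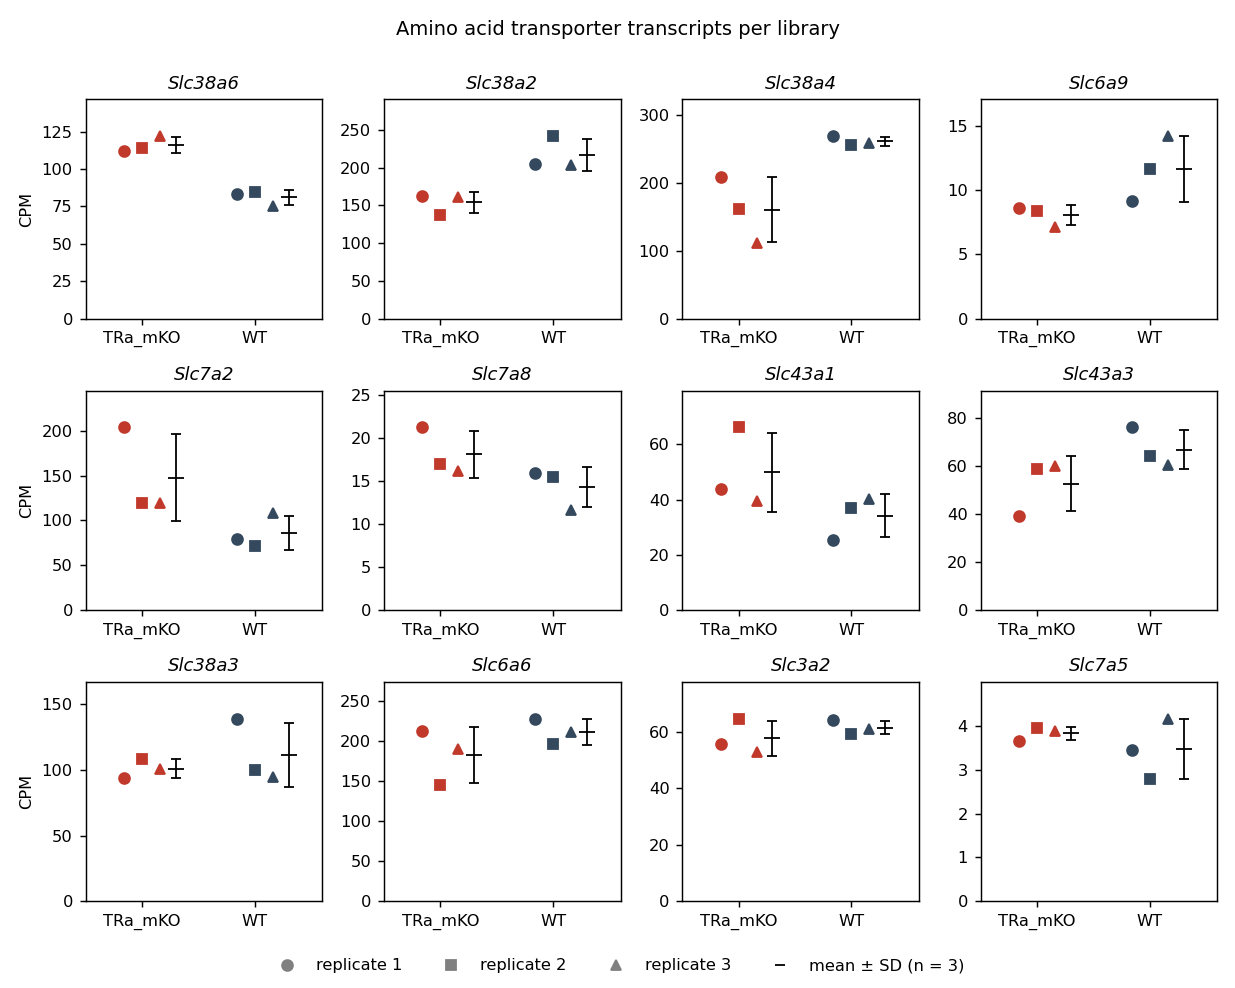
CPM in each library for 12 transporter genes, TRa_mKO left and WT right, with the mean ± SD of 3 libraries beside the points and a linear axis from 0 in each panel. The genotypes lie apart for Slc38a6, with TRa_mKO at 112 to 122 CPM and WT at 75.2 to 84.6 CPM, and for Slc38a2 in the opposite direction, while Slc38a4 and Slc7a2 spread widely within TRa_mKO.

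The other members of family 38 were not called. Slc38a3 encodes SNAT3, a system N carrier of glutamine, and had 93.9, 108 and 101 CPM in TRa_mKO and 139, 100 and 94.3 CPM in WT. WT replicate 1 stood above the rest, and the log2 fold change of -0.14 (SE 0.14, adjusted p = 0.678) was 0.05 without that library. Slc38a9, the lysosomal carrier through which mTORC1 senses arginine, had 34.1, 34.4 and 29.8 CPM in TRa_mKO and 27.2, 31 and 28.4 CPM in WT. The genotypes overlapped, and the interval of Slc38a9 ran from -0.03 to 0.39 on the log2 scale (adjusted p = 0.347). Slc38a10 averaged 62.9 ± 6.98 CPM in TRa_mKO and 54.6 ± 5.63 CPM in WT (adjusted p = 0.356). Slc38a7, a lysosomal exporter of glutamine and asparagine, averaged 10.9 ± 1.51 CPM in TRa_mKO and 10.7 ± 1.28 CPM in WT (adjusted p = 0.938), and Slc38a11 averaged 4.13 ± 1.17 CPM in TRa_mKO and 4.54 ± 0.444 CPM in WT (adjusted p = 0.825).

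Glutamine enters many cells through the exchanger ASCT2, the product of Slc1a5, and leaves them in trade for leucine through the CD98 heterodimer. Slc1a5 averaged 46.3 ± 3.82 CPM in TRa_mKO and 43.4 ± 5.01 CPM in WT, with an interval of -0.14 to 0.32 on the log2 scale (edgeR adjusted p = 0.711). Its relative Slc1a4, an exchanger of alanine, serine and cysteine, averaged 2.46 ± 0.604 CPM in TRa_mKO and 1.8 ± 0.754 CPM in WT (adjusted p = 0.539). The glutamate carriers Slc1a1 (6.14 ± 0.196 CPM in TRa_mKO, 6.58 ± 1.88 CPM in WT) and Slc1a3 (2.3 ± 0.616 CPM in TRa_mKO, 2.58 ± 0.574 CPM in WT) were not called either (adjusted p = 0.866 and 0.801). All 4 members of family 1 had overlapping genotypes.

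Slc3a2 encodes the CD98 heavy chain that brings light chains to the cell surface. It had 55.7, 64.6 and 52.8 CPM in TRa_mKO and 64, 59.3 and 61.1 CPM in WT. The genotypes overlapped, and the interval of Slc3a2 ran from -0.30 to 0.12 (adjusted p = 0.679). Slc7a5, the light chain LAT1 that takes leucine and other large neutral amino acids as well as thyroid hormone, had 3.66, 3.95 and 3.87 CPM in TRa_mKO and 3.44, 2.79 and 4.16 CPM in WT (log2 fold change 0.14, SE 0.20, adjusted p = 0.785). Its low level in both genotypes left the interval at -0.31 to 0.58. Slc7a8, the light chain LAT2, which also carries thyroid hormone, had 21.2, 17 and 16.1 CPM in TRa_mKO and 15.9, 15.4 and 11.6 CPM in WT. The TRa_mKO libraries of Slc7a8 all lay above WT, by a narrow margin, and the difference did not pass (log2 fold change 0.35, SE 0.15, unadjusted p = 0.0466, adjusted p = 0.271 in the edgeR quasi-likelihood test).

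Among the remaining light chains, Slc7a6 averaged 35.4 ± 3.1 CPM in TRa_mKO and 35.2 ± 4.03 CPM in WT, with an interval of -0.23 to 0.25 on the log2 scale. It encodes an exchanger of cationic for neutral amino acids, as does Slc7a7, which averaged 2.34 ± 0.199 CPM in TRa_mKO and 2.32 ± 0.199 CPM in WT. Both have fractional counts, and Slc7a7 overlaps Oxa1l on the opposite strand. Slc7a11, the cystine importer xCT that supplies glutathione synthesis, had 3.22, 1.53 and 2.91 CPM in TRa_mKO and 4.04, 2.56 and 4.03 CPM in WT. TRa_mKO replicate 2 was lowest, the genotypes overlapped, and the interval of Slc7a11 from -1.12 to 0.19 (adjusted p = 0.453) does not bound a change of 2-fold. Slc7a6os, which is no carrier, averaged 14.9 ± 1.91 CPM in TRa_mKO and 15.9 ± 1.05 CPM in WT.

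Arginine and lysine enter muscle through the cationic carriers CAT1 (Slc7a1) and CAT2 (Slc7a2). Slc7a2 had 204, 120 and 119 CPM in TRa_mKO and 79.2, 71.8 and 108 CPM in WT. All TRa_mKO libraries lay above WT, and TRa_mKO replicate 1 stood far above the other libraries. The difference of Slc7a2 did not pass (log2 fold change 0.78, SE 0.25, interval 0.19 to 1.36, edgeR adjusted p = 0.155). DESeq2 called it (adjusted p = 0.00502, with 0.00502 to 0.356 over 17 alternatives). Without TRa_mKO replicate 1 the log2 fold change of Slc7a2 was 0.47. Slc7a1 averaged 7.75 ± 1.38 CPM in TRa_mKO and 6.55 ± 0.897 CPM in WT (adjusted p = 0.514).

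Family 43 holds the facilitators LAT3 (Slc43a1) and LAT4 (Slc43a2), which let branched-chain amino acids pass without sodium, and Slc43a3, which is known as a carrier of purine bases. Slc43a1 had 43.8, 66.1 and 39.6 CPM in TRa_mKO and 25.4, 36.9 and 40.3 CPM in WT. The genotypes overlapped, since TRa_mKO replicate 3 lay below WT replicate 3, and the log2 fold change was 0.54 (SE 0.24, interval -0.02 to 1.10, adjusted p = 0.297). Slc43a3 had 39.4, 58.7 and 59.9 CPM in TRa_mKO and 76.2, 64.4 and 60.3 CPM in WT. The genotypes of Slc43a3 did not overlap, though TRa_mKO replicate 3 and WT replicate 3 lay next to each other (log2 fold change -0.35, SE 0.16, adjusted p = 0.31). Slc43a2 averaged 20.7 ± 2.88 CPM in TRa_mKO and 18.6 ± 1.33 CPM in WT (adjusted p = 0.544).

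In family 6, whose carriers are driven by sodium and chloride, the taurine carrier Slc6a6 had the highest level per kilobase. It had 213, 145 and 190 CPM in TRa_mKO and 228, 196 and 211 CPM in WT, with overlapping genotypes and TRa_mKO replicate 2 lowest (log2 fold change -0.22, SE 0.14, interval -0.52 to 0.09, adjusted p = 0.458). Slc6a9, the glycine carrier GlyT1, had 8.64, 8.39 and 7.13 CPM in TRa_mKO and 9.13, 11.6 and 14.2 CPM in WT. All TRa_mKO libraries of Slc6a9 lay below WT, and the difference did not pass (log2 fold change -0.54, SE 0.17, interval -0.92 to -0.15, adjusted p = 0.127). Slc6a9 has fractional counts and overlaps B4galt2 and Ccdc24 on the opposite strand. Although the library kit keeps strand, the sources used here do not state how the counting treated strand. The same limit holds for Slc1a1, Slc7a4, Slc7a5, Slc7a7 and Slc7a10, which also overlap protein-coding genes on the opposite strand. The other members of family 6 that were tested were scarce, none was called, and each had overlapping genotypes. The noradrenaline carrier Slc6a2 averaged 2.47 ± 0.372 CPM in TRa_mKO and 2.58 ± 0.628 CPM in WT, and Slc6a13, a carrier of GABA and taurine, averaged 1.63 ± 0.351 CPM in TRa_mKO and 1.48 ± 0.493 CPM in WT. The vesicular carrier Slc6a17 averaged 2 ± 0.148 CPM in TRa_mKO and 2.49 ± 0.664 CPM in WT, and the proline carrier Slc6a7 averaged 1.22 ± 0.155 CPM in TRa_mKO and 0.938 ± 0.498 CPM in WT.

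The proton-coupled carriers of family 36, which release small amino acids from lysosomes or take them up, were all lower on average without a call. Slc36a1 averaged 11.7 ± 1.58 CPM in TRa_mKO and 12.9 ± 0.628 CPM in WT (adjusted p = 0.613), and Slc36a4 averaged 12 ± 1.63 CPM in TRa_mKO and 13.9 ± 2.5 CPM in WT (adjusted p = 0.514). Slc36a2 had 3.66, 4.92 and 3.46 CPM in TRa_mKO and 7.19, 2.25 and 8.85 CPM in WT. WT replicate 2 lay below every TRa_mKO library of Slc36a2 while the other WT libraries lay above them, and its interval from -1.65 to 0.41 was the widest among the tested members.

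**Figure D2:**
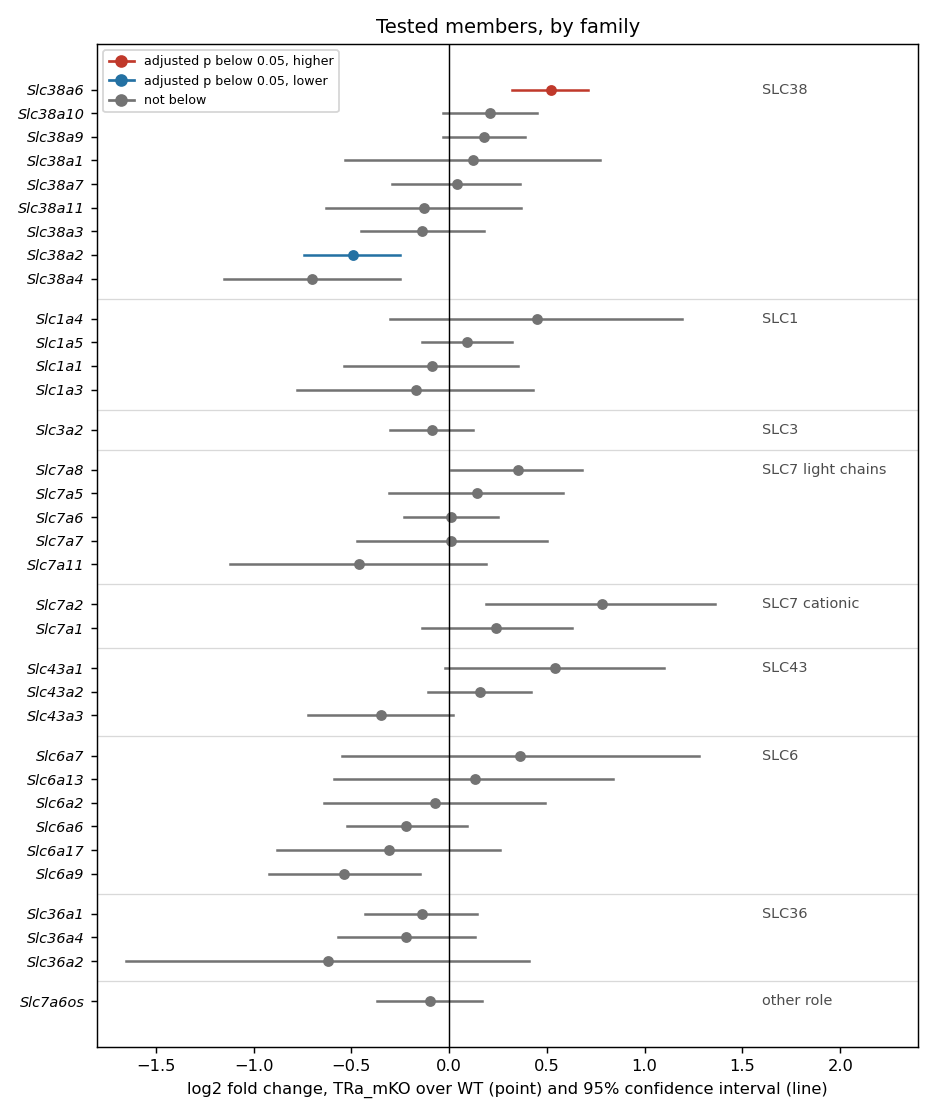
Log2 fold change of TRa_mKO over WT (points) with 95% confidence intervals (lines) for the tested members named in the text, grouped by family. Slc38a6 at 0.52 and Slc38a2 at -0.49 are the 2 members with an adjusted p below 0.05, and the widest interval, of Slc36a2, runs from -1.65 to 0.41.

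The precision differed among the members. Of the 33 that were not called, 15 had an interval wholly within a 1.5-fold change either way and 25 within a 2-fold change. Those whose intervals reached past 2-fold included Slc38a4, Slc7a2, Slc43a1, Slc36a2, Slc1a4, Slc6a7 and Slc7a11. For these a change of that size was not bounded by the spread between these libraries. Slc38a4 and Slc7a2 are among them at 1612 to 3908 and 927 to 2790 raw counts, while Slc7a7, at 27 to 37, was bounded within 2-fold. At an unadjusted p under 0.05 there were 3 members higher (Slc38a6, Slc7a2 and Slc7a8) and 3 lower (Slc38a2, Slc38a4 and Slc6a9), beside 17.9% of all genes. The genotypes did not overlap for 3 members above WT (Slc7a2, Slc38a6 and Slc7a8) and 4 below (Slc38a4, Slc38a2, Slc43a3 and Slc6a9). That is 20.0% of the tested members, beside 23.2% of all genes tested, 13.2% above WT and 10.1% below.

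The 4 members below the filter are given as raw counts. Slc7a4, a relative of the cationic carriers with no established substrate, had 8, 10 and 5 counts in TRa_mKO and 4, 4 and 2 in WT, without overlap and without a test. Slc7a10, a carrier of small neutral amino acids, had 12, 5 and 4 counts in TRa_mKO and 8, 4 and 7.14 in WT. Slc7a4 overlaps P2rx6 and Slc7a10 overlaps Lrp3 on the opposite strand, so reads of those genes may be among these few counts. Slc6a15 and Slc6a18, carriers of neutral amino acids, had 4 to 8 and 0 to 7 counts in TRa_mKO, against 8 to 13 and 5 to 12 in WT. At the count minimum itself, Slc7a4 averaged 5.5 counts and was kept, while Slc6a12 and Slc7a3 averaged 4.67 each and were left out.

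Levels were set against each other per length, as CPM per kilobase of merged GENCODE exons. Slc38a4 ranked first, at 37.7 ± 11.4 CPM per kilobase in TRa_mKO and 61.2 ± 1.58 in WT. It was followed by Slc6a6 (21.6 ± 4.08 in TRa_mKO, 25.1 ± 1.9 in WT), Slc38a2 (17.4 ± 1.55 in TRa_mKO, 24.6 ± 2.44 in WT), Slc38a3 (19.1 ± 1.33 in TRa_mKO, 21.1 ± 4.58 in WT) and Slc3a2 (16.4 ± 1.75 in TRa_mKO, 17.4 ± 0.679 in WT). From Slc6a6 to Slc38a3 the levels lay within each other's spread in WT, and Slc38a4 stood above them. With the longest protein-coding transcript as the length, Slc38a4 stayed first, Slc38a2 and Slc38a3 came before Slc6a6, and Slc38a6 moved from rank 8 to rank 5. The 3 highest members by merged exons took 39.5%, 32.2% and 32.3% of the summed level of all 39 in TRa_mKO libraries and 44.6%, 46.4% and 44.5% in WT libraries. Family 38 as a whole summed to 114, 103 and 96.3 CPM per kilobase in TRa_mKO and 138, 131 and 125 in WT, and the cationic carriers to 23.1, 13.9 and 14 in TRa_mKO and 9.24, 8.49 and 12.5 in WT. Slc38a4 made up the largest share of the first sum and Slc7a2 of the second, and the sums are given as a description with no test.

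**Figure D3:**
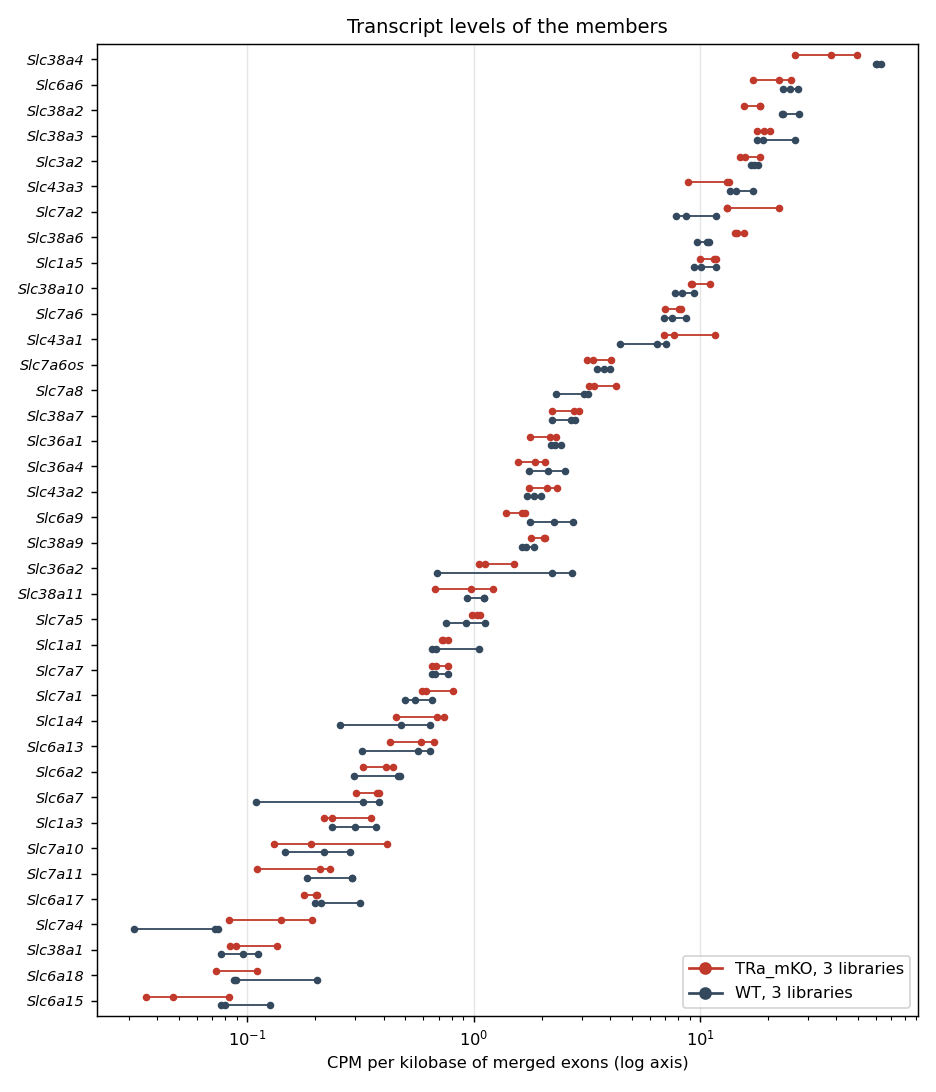
CPM per kilobase of merged exons on a log axis for the members named in the text, from the highest at the top, with TRa_mKO libraries above WT libraries in each row and a line over the range of 3 libraries. Slc38a4, the highest, lies at 26.2 to 49.1 in TRa_mKO and 60.1 to 63 in WT, and Slc6a15, the lowest, at 0.0357 to 0.0833 in TRa_mKO and 0.0766 to 0.126 in WT. TRa_mKO replicate 1 is at 0 for Slc6a18 and has no point.

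Genes that make, sense or respond to the same amino acids were examined as lists chosen with earlier results of these data known. In the ATF4 and amino acid response list, 3 of 34 tested genes fell and 0 rose, with a median log2 fold change of -0.11, beside 1.65% lower over all genes. Of these genes, 25 had a log2 fold change below 0 and 9 above. At an unadjusted p under 0.05 in the edgeR test, 6 were lower and 1 higher, beside 1013 and 1339 of all 13118 genes. The genotypes did not overlap for 8 genes below WT and 2 above, beside 10.1% and 13.2% of all genes. DESeq2 called 1 higher and 3 lower. Vldlr, a lipoprotein receptor, had 153, 164 and 144 CPM in TRa_mKO and 305, 349 and 325 CPM in WT (log2 fold change -1.08, SE 0.10, edgeR adjusted p = 0.000446). Ppp1r15a, whose product ends the stress response by restoring translation, had 26.2, 30.7 and 26.2 CPM in TRa_mKO and 37, 52 and 46.1 CPM in WT (log2 fold change -0.70, SE 0.13, adjusted p = 0.015). Cebpg, a dimer partner of ATF4, had 87.5, 76 and 81 CPM in TRa_mKO and 103, 106 and 105 CPM in WT (log2 fold change -0.37, SE 0.09, adjusted p = 0.0446). The genotypes lay apart for all of these. Slc38a2 and Slc7a11 are themselves known targets of this response, and so is Asns, asparagine synthetase. Asns and Atf4 were singled out for their roles after their values were seen, and other uncalled genes of the list differed more. Chac1 had 53.1 ± 8.49 CPM in TRa_mKO and 132 ± 81.9 CPM in WT, with WT replicate 3 at 225 CPM. Its log2 fold change was -1.31 (edgeR adjusted p = 0.239). Mthfd2 had a log2 fold change of -0.65 (adjusted p = 0.0914), and Cth went the other way at 0.84 (adjusted p = 0.0936). The genotypes did not overlap for Chac1, Mthfd2 or Cth. Asns measured 3.58 ± 0.681 CPM in TRa_mKO and 3.76 ± 0.434 CPM in WT. Atf4 transcripts measured 198 ± 22.5 CPM in TRa_mKO and 198 ± 11.3 CPM in WT, with an interval of -0.24 to 0.24. Without WT replicate 3 or TRa_mKO replicate 3 the list counted 1 lower. Ppp1r15a then had an adjusted p of 0.0599 and 0.0544, and Cebpg passed among the fits with 1 library left out only without TRa_mKO replicate 1 (0.0881 to 0.186 in the others). Without WT replicate 1 and TRa_mKO replicate 3 together, Cebpg had an adjusted p of 0.181 and the list counted 2 lower.

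Among 43 genes of amino acid sensing by mTORC1, 1 rose and 0 fell, beside 2.52% higher and 1.65% lower over all genes, with a median of 0.01. The riser was Lars2, the mitochondrial leucyl-tRNA synthetase, with 32.1, 29.1 and 27.1 CPM in TRa_mKO and 21.8, 20.4 and 20.2 CPM in WT (log2 fold change 0.50, SE 0.10, adjusted p = 0.0187). It did not pass without TRa_mKO replicate 2 (0.0784), WT replicate 2 (0.0608) or WT replicate 3 (0.0647). Lars2 acts within mitochondria, and the leucyl-tRNA synthetase tied to leucine sensing by mTORC1 is the cytosolic Lars. Lars was not called (51.2 ± 1.95 CPM in TRa_mKO, 51.8 ± 2.27 CPM in WT, edgeR adjusted p = 0.94). Of 15 tested genes of glutathione and taurine synthesis, 1 rose and 1 fell, beside the same shares of 2.52% and 1.65%, with a median of -0.13. Oplah, which recycles 5-oxoproline to glutamate, had 51.3, 54 and 54.4 CPM in TRa_mKO and 33.8, 29.1 and 32 CPM in WT (log2 fold change 0.75, SE 0.08, adjusted p = 0.0013), with fractional counts. Ggt7, of the gamma-glutamyltransferase family, had 1.24, 0.968 and 1.31 CPM in TRa_mKO and 2.32, 3.1 and 2.71 CPM in WT (log2 fold change -1.19, SE 0.25, adjusted p = 0.031). With 1 library left out, Ggt7 passed only without WT replicate 1, where its adjusted p rounds to 0.05. It was 0.0544 to 0.126 without each of the other libraries.

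Of 21 tested amino acid carriers in other families, 1 rose beside 2.52% of all genes and 0 fell beside 1.65%, with a median of -0.05. Sfxn2, a sideroflexin of the mitochondrial membrane, had 17.1, 22.2 and 14.9 CPM in TRa_mKO and 11.6, 10.2 and 11.5 CPM in WT (log2 fold change 0.70, SE 0.15, adjusted p = 0.0324). It did not pass without TRa_mKO replicate 2 (0.12) or WT replicates 1, 2 or 3 (0.0751, 0.0984 and 0.0853), nor with libraries scaled by size alone (0.0617). For the fallers of these lists with 0 lower calls, 1 gene of the mTORC1 list and 2 of the other carriers had an unadjusted p under 0.05, while DESeq2 called 0 in each.

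**Figure D4:**
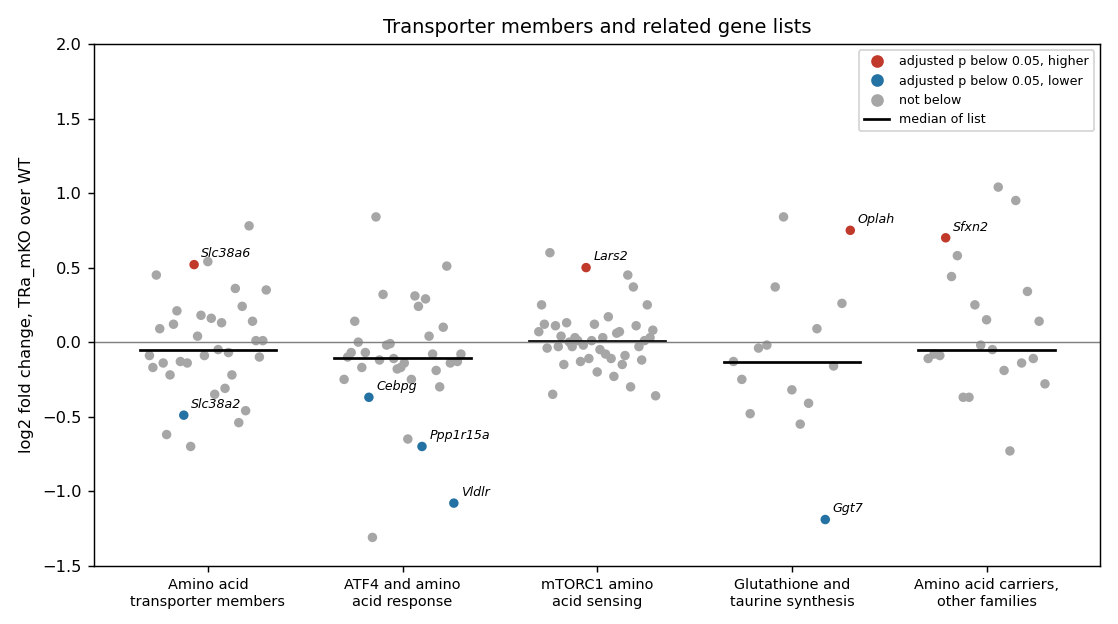
Log2 fold change of TRa_mKO over WT for each tested gene (points) of the transporter members and of 4 related lists, with the median of each list as a line and genes with an adjusted p below 0.05 named. The medians lie between -0.13 and 0.01, and the called genes of the ATF4 list, Vldlr, Ppp1r15a and Cebpg, lie below 0.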

How the data were processed

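Each of the 6 libraries was made from polyadenylated RNA, 3 from TRa_mKO and 3 from WT gastrocnemius, all of batch 1 per the labels. The authors deposited estimated counts per gene, and in each library 9.65% to 10% of the values over 17034 genes were not whole, within a tolerance of 1e-06 counts. The submitters' processing notes name FastQC 0.11.9, Trimmomatic 0.39, MultiQC 1.12 and featureCounts. They list 3 genome builds (GRCm38.p6, mm10, GRCm39) with no role for any. Which aligner and annotation were used, and whether counting used strand, is not given in the sources used here. A fractional value can arise where reads are divided between features, so such genes are reported as uncertain (5 members).

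Counts were rounded and tested with edgeR 4.0.16 in R 4.3.3 (filterByExpr with a minimum count of 10, TMM scaling, robust quasi-likelihood fit, Benjamini-Hochberg adjustment over 13118 genes). CPM values use the TMM library sizes, and values per kilobase divide these by merged GENCODE exon lengths. Intervals are 95% confidence intervals and cover the spread between these libraries. The test was tried on simulated data with known changes. It found 53.6% of the 1.5-fold and 83.6% of the 2-fold changes, and 7.24% of its calls were false. The alternatives were DESeq2 1.42.0, limma 3.58.1 (voom), other scalings and filters, unrounded values, a replicate block and leaving out libraries. The members and lists were chosen with earlier results of these data known. The counts of members cover all 39, of which 1 is not reported here by name. Genes named in full were the called members, the 6 uncalled members with the smallest p, the 6 highest per kilobase, and members with a textbook role in muscle, sensing or thyroid hormone transport, and of each related list the called genes.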

Additional observations from a re-analysis of the deposited data

How the results depend on the processing

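Across 13118 genes, 331 were higher and 216 lower. With an adjusted p below 0.01 these counts were 112 and 61, below 0.1 they were 575 and 359, and scaling by library size alone gave 213 higher. The replicate block gave 216 and 141, leaving out WT replicate 1 and TRa_mKO replicate 3 together gave 177 and 90, and leaving out 1 library gave 135 to 331 higher and 74 to 264 lower. For the members (1 higher, 1 lower), a threshold of 0.01 gave 0 and 0, a threshold of 0.1 gave 2 lower, DESeq2 gave 2 and 2, leaving out WT replicate 1 and TRa_mKO replicate 3 gave 0 and 0, genes with fractional values left out gave 0 higher, the block gave 0 lower, and leaving out 1 library gave 0 to 1 higher and 0 to 2 lower. The ATF4 list had 1 higher at 0.1 and with DESeq2 and 0 to 1 without 1 library, and 1 lower at 0.01 and 1 to 4 without 1 library. The mTORC1 list had 0 higher at 0.01, 2 with DESeq2, 2 with the block and 0 to 2 without 1 library, and 1 lower at 0.1. The glutathione and taurine list had 2 higher at 0.1 and with DESeq2, 0 without fractional genes and 1 to 2 without 1 library. It had 0 lower at 0.01, with the block and without WT replicate 1 and TRa_mKO replicate 3, 2 at 0.1, by library size, with no filter and with DESeq2, and 0 to 2 without 1 library. The other carriers had 0 higher at 0.01, by library size and with the block, 2 at 0.1 and with DESeq2, and 0 to 1 without 1 library. The log2 fold change of Slc38a3 (-0.14) ran from -0.24 to 0.05 without 1 library and changed sign, to 0.05, without WT replicate 1 and without that library and TRa_mKO replicate 3. The cause was not tested.

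No pairing by replicate number was seen: deviations of same-numbered libraries correlated at -0.18, 0.01 and -0.03, and those of differently numbered libraries at -0.17 to 0.22. With 3 libraries per genotype these correlations cannot exclude a pairing. With the replicate block the adjusted p was 0.0487 for Slc38a6, 0.112 for Slc38a2, 0.121 for Cebpg, 0.0778 for Ggt7 and 0.0712 for Sfxn2, and the ATF4 list counted 2 lower. With 3 libraries each, members whose libraries spread widely, such as Slc38a4, Slc7a2 and Slc36a2, are not bounded within a 2-fold change.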
